A study of Arabidopsis thaliana with 72 samples.

Results

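Roots of Arabidopsis thaliana control seedlings sampled 1 h after the start of incubation were compared with roots sampled at 0 h, across all 22884 genes of the deposited table. The comparison used 6 of the 72 deposited columns, 3 at each time. Seedlings (14 days old) had grown on sucrose-containing agar plates in a 16/8 h light/dark cycle, and treatment began 7 h into the light period. The 1 h group received 0.1% EtOH, the carrier used for the phytotoxin t-chalcone elsewhere in the series, and no t-chalcone. The 0 h group carries the label of an EtOH control, but its 3 columns were identical in all 22884 genes to 3 root columns labelled as untreated, so they were counted once and whether these roots had met EtOH cannot be told from the table. The labels name no ecotype and no genotype, and they do not say whether replicates came from separate plates. The p-values therefore measure the spread between libraries, which may be partly technical. Time of day and time since handling differ between the groups, and whether EtOH does is not known, so these cannot be told apart.

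Roots take up water, nitrogen and mineral ions through named families of membrane transporters, and they grow by loosening cell walls at the tip and in root hairs. Touch, wounding, bending and wetting are known to raise, within minutes, transcripts for calcium-binding proteins, WRKY and AP2/ERF transcription factors, jasmonate enzymes and wall-modifying enzymes, and many of these transcripts are short-lived. The circadian clock gives each hour of the day its own transcript pattern: CCA1 and LHY, a pair of related MYB factors, peak near dawn, and ELF3, ELF4 and PCL1 (also known as LUX), which form the evening complex, peak near dusk. Folding stress in the cytosol is read out by heat shock proteins, and folding stress in the endoplasmic reticulum by BiP chaperones.

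Values are the authors' normalised counts, read counts divided by a size factor for each library. The 0 h libraries held 0.186, 11.3 and 8.77 M recovered counts (M, mega), and the 1 h libraries held 17.3, 19.1 and 15.9 M. In the shallow 0 h replicate 1, 1 recovered count was worth 27.0 normalised counts. In that library 42.6% of genes stood at that lowest value, against 6.30 to 8.52% in the other 5 libraries. No value in the table was 0, while 9741 genes of that library stood at exactly 1 recovered count. The lowest value therefore very probably covers genes without reads, and for a single gene 1 read and none cannot be told apart. A value of 27.0 in that library is therefore the bottom of its scale, and counts and changes are given with and without it. A gene named below as having risen or fallen passed the test both with and without that library unless stated otherwise, and a second value in brackets is the log2 change without it. Counts over gene lists are given for each fit separately. Each 1 h library was deeper than each 0 h library. Summed levels of the 27 shoot photosynthesis markers were 15053, 3423 and 2835 at 0 h and 7656, 5667 and 6447 at 1 h, with 0 h replicate 1 highest. In shoots they were 1152100.0 to 1288500.0 at 0 h and lower, 518700.0 to 573270.0, at 1 h. The light-harvesting gene CAB2 (AT1G29920) stood at 676, 13.7 and 12.6 at 0 h and at 7.07, 9.90 and 7.23 at 1 h. The list as a whole went another way without 0 h replicate 1: of its 27 genes 2 rose and 1 fell with all libraries, and 8 rose and none fell in limma without that library, with medians of 0.03 and 0.74. Defining root genes were present in the 5 deeper libraries, since none of the 17 root identity genes was at the lowest value there, while 7 were in 0 h replicate 1.

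With all 3 libraries at 0 h, 3213 of 19835 genes tested (16.2%) were higher at 1 h and 1745 (8.8%) were lower at an adjusted p under 0.05 in limma, 25.0% in either direction. Without 0 h replicate 1, 1924 of 19479 genes (9.88%) were higher and 1861 (9.55%) were lower, 19.4% in either direction, so that the share of calls that were higher fell from 64.8 to 50.8%. The fits agreed in direction for every gene called by both, which were 1662 higher genes (8.38%) and 1330 lower genes (6.71%). Of these, 619 rose and 746 fell by more than 1 on the log2 scale in both fits. Replicate 1 was at its lowest value for 6708 of the genes tested, among them 943 of the higher and 472 of the lower calls. All 3 libraries at 1 h lay above all 3 at 0 h for 5459 genes (27.5%) and below them for 2962 (14.9%). The median change over all genes tested was 0.13 on the log2 scale with replicate 1 and 0.05 without it. By edgeR's quasi-likelihood test on the recovered counts, 3449 genes were higher and 3944 (19.9%) lower, 37.3% in either direction, 46.7% of calls being higher.

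**Figure D1:**
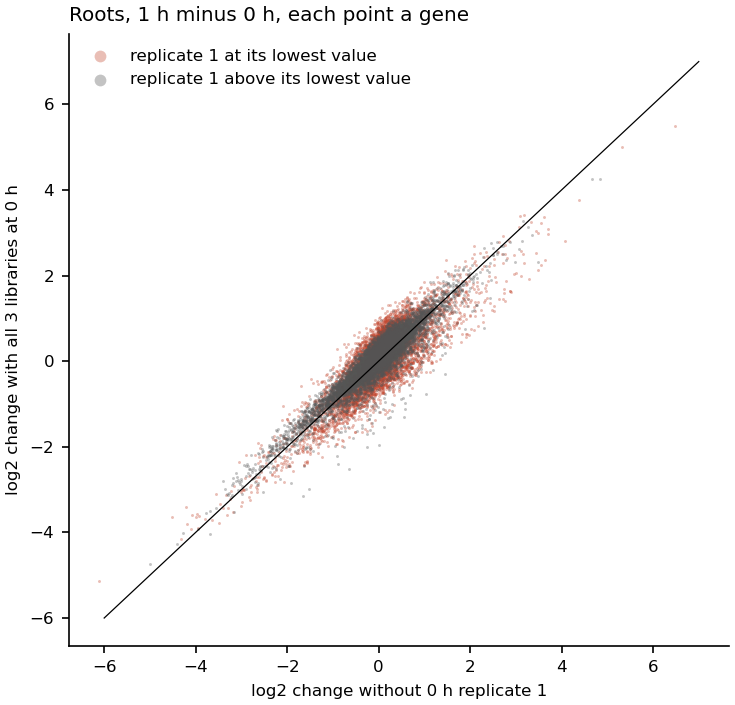
Log2 change of each gene between 0 h and 1 h in control roots, without 0 h replicate 1 on the x axis and with all 3 libraries at 0 h on the y axis; the line marks equal values. Genes for which replicate 1 stood at its lowest value, 6708 of those tested, are drawn in red and the others in grey, and no gene called in both fits had opposite signs.

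Among genes with a symbol that met the naming rule given under processing, those that rose most were led by a pair of sugar transporters. SWEET11 (AT3G48740), which exports sucrose and is known for loading the phloem in leaves, stood at 27.0, 3.99 and 1.49 at 0 h and at 319, 325 and 304 at 1 h, a log2 change of 5.49 ± 0.49 (SE, adjusted p = 1.8e-09). SWEET12 (AT5G23660), its partner in that role, stood at 81.1, 34.2 and 33.4 at 0 h and at 866, 951 and 852 at 1 h and changed by 4.26 ± 0.40 (SE, adjusted p = 3.5e-09). Both genes were low in every 0 h library, SWEET11 being at the lowest value in replicate 1, and uniformly high at 1 h. Without 0 h replicate 1 their changes were 6.49 ± 0.38 (adjusted p = 8.3e-13) and 4.68 ± 0.42 (adjusted p = 2.3e-09). In shoots SWEET11 averaged 1141 ± 71.2 at 0 h and 1468 ± 173 at 1 h (SD, n = 3).

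Several other transporters and nutrient genes were among the 15 largest rises of genes with a symbol under that rule. ZIP5 (AT1G05300), a zinc transporter of the ZIP family, stood at 27.0, 9.68 and 25.3 at 0 h and at 207, 273 and 154 at 1 h. RNS1 (AT2G02990), a secreted ribonuclease known from phosphate starvation and wounding, stood at 27.0, 33.03 and 59.4 at 0 h and at 315, 488 and 444 at 1 h. AAP3 (AT1G77380), an amino acid permease, stood at 108, 114 and 92.1 at 0 h and at 559, 673 and 853 at 1 h, a log2 change of 2.70 ± 0.17 (SE, adjusted p = 1.5e-12, and 2.73 without replicate 1). The groups did not overlap for any of the 3 genes, because the rule that chose them required it. PTR3 (AT5G46050), a peptide transporter, stood at 27.0, 8.54 and 5.94 at 0 h and at 93.9, 117 and 103 at 1 h. BCAT-2 (AT1G10070), a branched-chain amino acid transaminase, stood at 216, 98.0 and 120.3 at 0 h and at 1241, 932 and 759.5 at 1 h. The remaining members were the dirigent-like DIR5 (AT1G64160, log2 change 3.27), the terpenoid synthase TPS13 (AT4G13300, 3.00), the linker histone HIS1-3 (AT2G18050, 2.80), the RING ubiquitin ligase ATL8 (AT1G76410, 2.93), the metacaspase MC6 (AT1G79320, 2.71), the exocyst subunit EXO70H2 (AT2G39380, 2.69), the clock-linked JmjC protein JMJD5 (AT3G20810, 2.61) and the defence regulator ORA59 (AT1G06160, 2.57). Replicate 1 was at its lowest value for ZIP5 and RNS1. It was also at that value for PTR3, TPS13, HIS1-3, ATL8, MC6 and ORA59, whose changes without it were 3.69, 3.49, 2.84, 2.71, 2.77 and 3.11.

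Chaperone, membrane, jasmonate and wall genes were among the 15 genes with a symbol that fell most under the same rule. BIP3 (AT1G09080), an endoplasmic reticulum chaperone that is scarce without folding stress, stood at 27.0, 186 and 250.3 at 0 h and at 3.54, 2.05 and 1.204 at 1 h. Its log2 change was -5.13 ± 0.73 (SE, adjusted p = 4.6e-06), and -6.12 ± 0.72 (adjusted p = 2.9e-07) without 0 h replicate 1, where it was at the lowest value. BON1 (AT5G61900), a copine that binds membranes in the presence of calcium, stood at 81.1, 128 and 152 at 0 h and at 0.393, 13.3 and 3.21 at 1 h. CNGC19 (AT3G17690), a cyclic nucleotide gated ion channel, stood at 162, 282 and 271 at 0 h and at 20.8, 11.9 and 9.63 at 1 h. For both genes every 0 h library was above every 1 h library, which the rule that chose them required. Their log2 changes were -4.74 ± 0.70 (SE, adjusted p = 7.7e-06, and -4.999 without replicate 1) and -4.01 ± 0.42 (SE, adjusted p = 2.6e-08, and -4.27 without replicate 1).

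LOX3 (AT1G17420), a lipoxygenase of jasmonate synthesis, stood at 27.0, 91.7 and 62.4 at 0 h and at 5.89, 3.41 and 2.01 at 1 h. The expansin-like EXLA3 (AT3G45960) stood at 378, 669 and 363 at 0 h and at 39.3, 47.1 and 37.7 at 1 h, and its relative EXLA2 (AT4G38400) at 216, 312 and 209 at 0 h and at 42.0, 24.6 and 24.1 at 1 h. PHI-1 (AT1G35140), of the phosphate-responsive 1 family, stood at 568, 1248 and 560.1 at 0 h and at 57.7, 75.8 and 60.2 at 1 h, and EXL5 (AT2G17230), of the related exordium-like family, at 568, 906 and 721 at 0 h and at 82.5, 65.9 and 101 at 1 h. Replicate 1 lay within or below the range of the other 0 h libraries, and the 1 h libraries were uniformly low. DREB26 (AT1G21910), an AP2/ERF transcription factor, stood at 729.7, 1298 and 1011 at 0 h and at 118, 97.0 and 129 at 1 h, and the transcription factor MYB77 (AT3G50060) at 270.2, 277 and 181 at 0 h and at 20.03, 42.0 and 28.9 at 1 h. The other members were the cell wall invertase CWINV5 (AT3G13784, log2 change -4.28), the very-long-chain fatty acid enzyme KCS3 (AT1G07720, -3.41), the abscisic acid and salt response gene RAS1 (AT1G09950, -3.17), the small heat shock protein HSP17.4 (AT3G46230, -3.53) and the cytochrome P450 CYP82C4 (AT4G31940, -3.12).

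Among identifiers without a symbol, 4 were picked after their values had been seen. AT5G40590, annotated by RefSeq as a Cys/His-rich C1 domain protein, stood at 27.0, 9.11 and 20.1 at 0 h and at 598, 632 and 516 at 1 h and changed by 5.001 ± 0.26 (SE, adjusted p = 2.4e-14, and 5.31 without replicate 1). AT1G15125, annotated as a methyltransferase, stood at 54.1, 17.7 and 13.4 at 0 h and at 426, 430.1 and 548 at 1 h. AT1G32970, annotated as subtilisin-like, stood at 54.1, 56.4 and 62.4 at 0 h and at 3.14, 2.73 and 2.81 at 1 h, and AT3G44870, another annotated methyltransferase, stood at 27.0, 160.0 and 183 at 0 h and at 13.4, 3.41 and 5.62 at 1 h. The first pair was far higher and the second pair far lower at 1 h, with no overlap between the groups. Because the 4 were picked on these values, the size of the change and the lack of overlap follow from the choice.

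**Figure D2:**
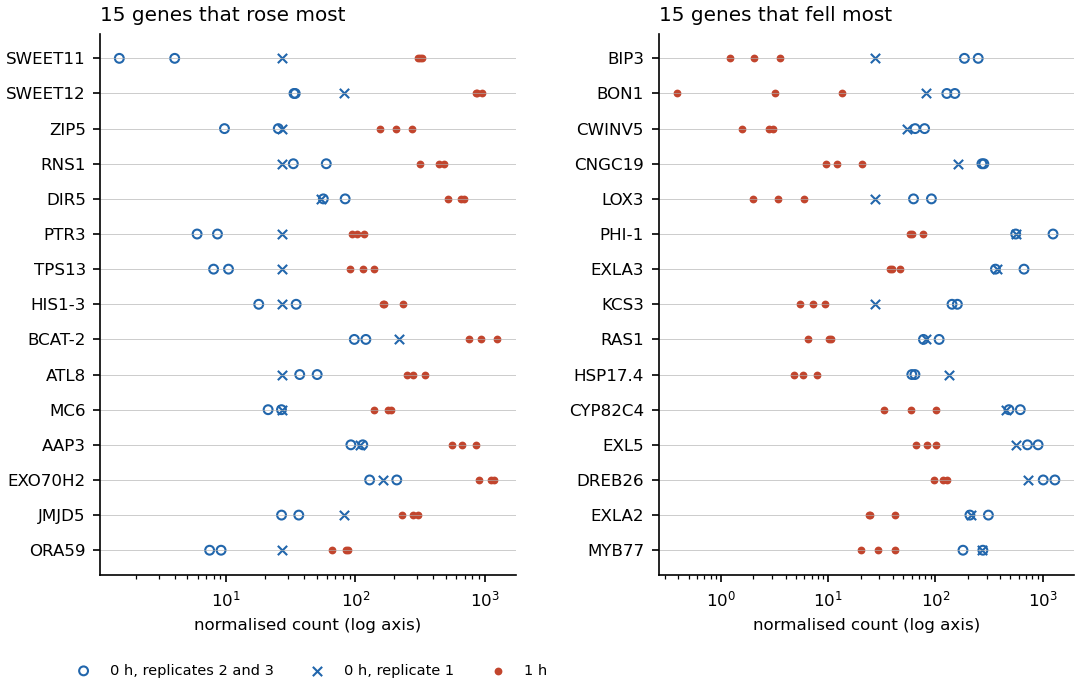
Normalised counts (log axis) of the 15 genes that rose most and the 15 that fell most, among genes with a symbol that met the naming rule. Each point is 1 library, with 0 h libraries in blue (replicate 1 as a cross) and 1 h libraries in red. The red points lie wholly to one side of the blue ones in each row, because the rule that chose the genes required it.

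Each list count below reads against the share of all genes tested, 16.2% higher and 8.8% lower with all libraries, and 9.88% and 9.55% without 0 h replicate 1. Most list members named below were the called ones with the largest changes, a choice that favours groups without overlap. Of all genes tested, 27.5% had all 1 h libraries above all 0 h libraries, and 14.9% had them all below. Among genes known to respond within minutes to touch and other stresses, more fell than rose. Of 36 genes tested, 6 rose and 14 fell with all libraries, and 3 rose and 14 fell without 0 h replicate 1. The share that rose with all libraries was close to that of all genes. The median change was -0.47, against 0.13 over all genes tested. MYBR1 (AT5G67300, also MYB44) stood at 1973, 3004 and 2503 at 0 h and at 435, 466 and 595 at 1 h, a change of -2.31 ± 0.18 (SE, adjusted p = 1.7e-10, and -2.47 without replicate 1). WRKY46 (AT2G46400) stood at 162, 302 and 111 at 0 h and at 20.03, 50.5 and 29.7 at 1 h, and CML37 (AT5G42380), a calmodulin-like protein, at 81.1, 120.2 and 61.7 at 0 h and at 9.04, 31.7 and 12.8 at 1 h. Both were high and scattered at 0 h and lower in every 1 h library. AT1G76640, a calcium-binding EF-hand protein, changed by -3.08 ± 0.57 (SE, adjusted p = 1.6e-04, and -3.28 without replicate 1).

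Among genes of jasmonate synthesis, breakdown and repression, more fell than rose. Of 24 genes tested, 1 rose and 15 fell with all libraries, and 2 rose and 14 fell without 0 h replicate 1, against 8.8% and 9.55% of all genes lower. The median change was -1.06, and -1.35 without 0 h replicate 1. Beside LOX3, the synthesis gene LOX4 (AT1G72520) stood at 54.1, 222 and 90.6 at 0 h and at 12.2, 20.1 and 12.8 at 1 h. The repressors JAZ5 (AT1G17380), JAZ7 (AT2G34600) and JAZ10 (AT5G13220) changed by -2.03 ± 0.47 (SE, adjusted p = 0.0019, and -2.35 without replicate 1), -2.82 ± 0.49 (SE, adjusted p = 7.0e-05, and -3.04 without replicate 1) and -2.81 ± 0.43 (SE, adjusted p = 1.3e-05, and -3.13 without replicate 1). JAZ10 stood at 108, 208 and 216 at 0 h and at 28.7, 19.5 and 22.9 at 1 h. CYP94B3 (AT3G48520), which oxidises the active hormone jasmonoyl-isoleucine, stood at 378, 448 and 389 at 0 h and at 82.1, 64.9 and 50.6 at 1 h. The 0 h libraries were above the 1 h libraries for each of these genes. Over the list, 17 of 24 genes lay wholly below and 2 wholly above at 1 h (14.9% and 27.5% of all genes tested).

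Most heat shock genes tested fell. In the cytosolic heat shock list, 18 of 24 genes fell and 0 rose, with a median change of -1.36, and 18 fell and 0 rose without 0 h replicate 1 (background 8.8% and 9.55%). HSP70 (AT3G12580) stood at 513, 1486 and 1511 at 0 h and at 214, 137 and 169.8 at 1 h, a change of -2.61 ± 0.45 (SE, adjusted p = 6.4e-05, and -3.13 without replicate 1). HSP17.4 stood at 135, 64.4 and 60.2 at 0 h and at 7.86, 5.80 and 4.82 at 1 h. HSFA2 (AT2G26150), a heat shock transcription factor, stood at 81.1, 55.8 and 47.5 at 0 h and at 6.29, 8.88 and 13.2 at 1 h, and the small chaperone HSP17.6A (AT5G12030) at 27.0, 50.1 and 34.2 at 0 h and at 2.36, 3.41 and 5.22 at 1 h. Every 0 h library exceeded every 1 h library for these genes, although 9 of the 24 listed genes tested were at the lowest value in 0 h replicate 1. Over the list, 18 of 24 genes lay wholly below and 0 wholly above at 1 h (14.9% and 27.5% of all genes tested).

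In the endoplasmic reticulum list, 9 of 10 genes fell and none rose by limma with all libraries, and all 10 fell without 0 h replicate 1 (background 8.8% and 9.55%). BIP2 (AT5G42020), the constitutive chaperone, stood at 2324, 3478 and 3425 at 0 h and at 1455, 1539 and 1863 at 1 h, a change of -0.91 ± 0.16 (SE, adjusted p = 8.9e-05, and -1.0998 without replicate 1). CNX1 (AT5G61790), the lectin chaperone calnexin, stood at 1622, 2447 and 2474 at 0 h and at 1378, 1314 and 1468 at 1 h. BZIP60 (AT1G42990), the transcription factor of the unfolded protein response, stood at 486, 503 and 521 at 0 h and at 322, 326 and 275 at 1 h, and its target NAC103 (AT5G64060) changed by -2.76 ± 0.64 (SE, adjusted p = 0.0019, and -2.52 without replicate 1). The 0 h and 1 h libraries did not overlap for BIP2, CNX1 or BZIP60. Over the list, 7 of 10 genes lay wholly below and 0 wholly above at 1 h (14.9% and 27.5% of all genes tested).

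All 6 genes of the mitochondrial stress list fell in both fits, with a median change of -1.41. AOX1A (AT3G22370), the alternative oxidase that bypasses part of the respiratory chain, stood at 459, 701 and 711 at 0 h and at 371, 310.0 and 256 at 1 h. BCS1 (AT3G50930), an AAA ATPase of the outer mitochondrial membrane, stood at 513, 861 and 406 at 0 h and at 127, 169.7 and 122 at 1 h. NAC13 (AT1G32870), a transcription factor known to regulate mitochondrial stress genes, changed by -1.18 ± 0.29 (SE, adjusted p = 0.0028, and -1.51 without replicate 1), and the alternative NADH dehydrogenase NDB2 (AT4G05020) by -0.51 ± 0.15 (SE, adjusted p = 0.012, and -0.65 without replicate 1). In roots given t-chalcone for 1 h AOX1A averaged 546 ± 92.7 (SD, n = 3), between the 0 h and 1 h control means.

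**Figure D3:**
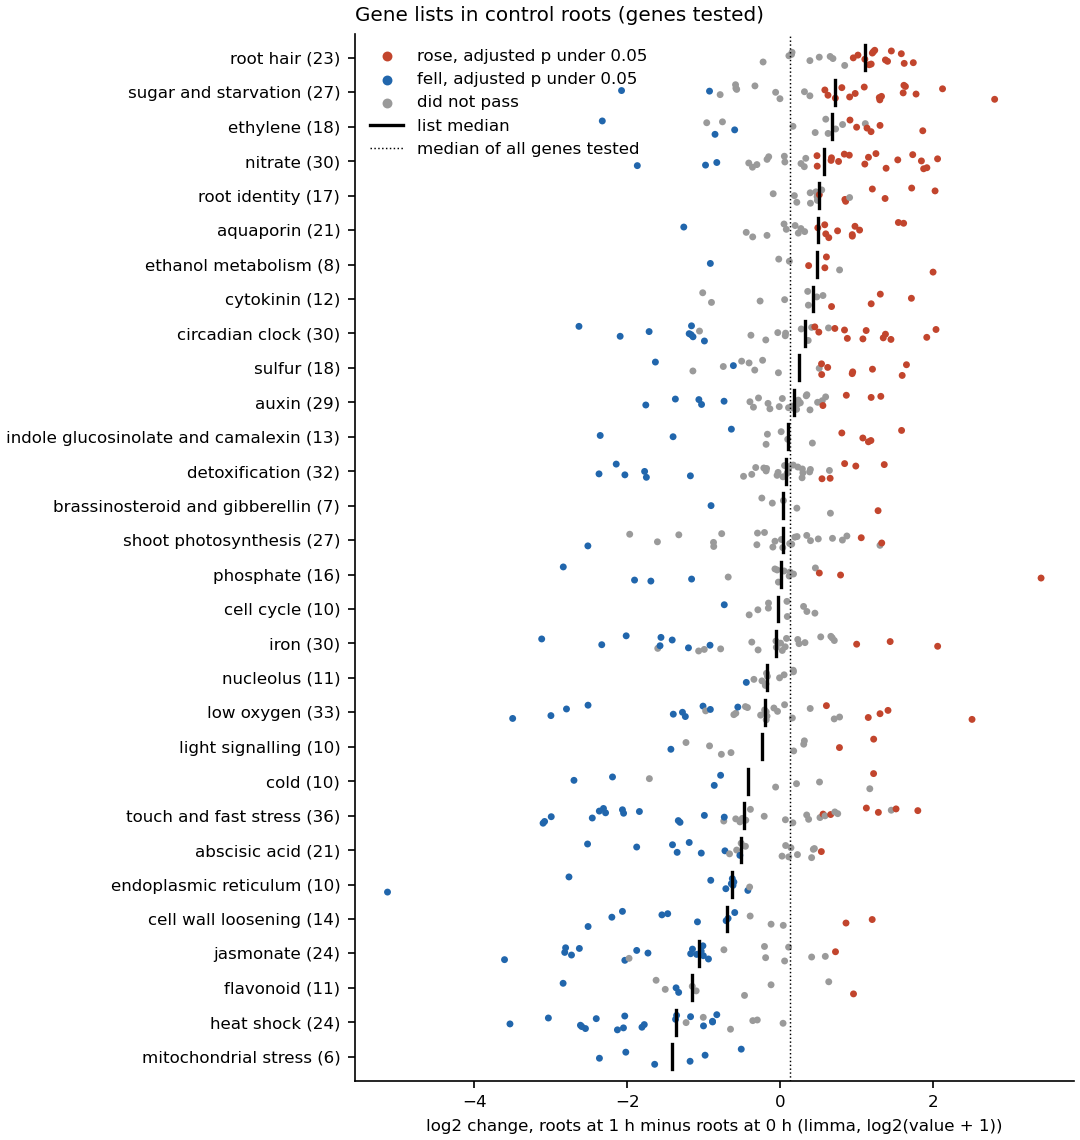
Log2 change of each listed gene between 0 h and 1 h in control roots (x axis), by list, with the number of genes tested in parentheses. Black bars are list medians, from -1.41 for mitochondrial stress to 1.104 for root hair genes, and the dotted line is the median of all genes tested, 0.13.

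Promoters of the genes that fell held the CAMTA rapid stress element, the letters CGCGTT on either strand, more often than promoters at large. CAMTA factors are calmodulin-binding transcription activators known for fast general stress responses in Arabidopsis. The 300 bases upstream of the annotated gene start were read from the RefSeq copy of TAIR10.1 by locus tag; the authors' table gives no coordinates, and the submitters' processing notes name TAIR10. CGCGTT was in 8.38% of 1324 promoters of genes that fell in both fits, in 1.39% of 1658 promoters of genes that rose in both, and in 3.27% of all 19741. Among genes that fell by more than 1 on the log2 scale in both fits it was in 75 of 744. In shoots the order was the other way, with 2.07% for genes that fell at 1 h and 4.09% for genes that rose. The G-box, CACGTG, was in 11.4% of the promoters of genes that fell in both fits, 5.43% of those that rose and 7.84% of all. The evening element, AAAATATCT (3.4%, 3.08% and 2.88%), and the W-box core, TTGACC (14.4%, 15.6% and 14.2%), were close to the share in all promoters. These shares are descriptions, and no test was run on them.

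The promoters of 4 genes that fell are shown for the rapid stress element, in capitals, 5′ to 3′ toward the gene start. EXLA3 holds it in 2 places and PHI-1, AOX1A and XTH18 in 1 place each.
EXLA3, chr3:16892402-16892701, plus strand: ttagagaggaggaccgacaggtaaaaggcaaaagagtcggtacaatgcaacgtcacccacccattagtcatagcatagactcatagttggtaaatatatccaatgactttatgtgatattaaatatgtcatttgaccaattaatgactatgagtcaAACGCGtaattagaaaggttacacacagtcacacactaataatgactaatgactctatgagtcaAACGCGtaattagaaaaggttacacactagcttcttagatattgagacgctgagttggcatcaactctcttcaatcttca
PHI-1, chr1:12851683-12851982, plus strand: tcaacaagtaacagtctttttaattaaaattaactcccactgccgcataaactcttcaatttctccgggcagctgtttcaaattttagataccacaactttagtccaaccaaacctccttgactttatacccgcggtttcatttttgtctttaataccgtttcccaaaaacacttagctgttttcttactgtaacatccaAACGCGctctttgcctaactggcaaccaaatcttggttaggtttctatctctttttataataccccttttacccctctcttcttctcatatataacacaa
AOX1A, chr3:7906221-7906520, plus strand: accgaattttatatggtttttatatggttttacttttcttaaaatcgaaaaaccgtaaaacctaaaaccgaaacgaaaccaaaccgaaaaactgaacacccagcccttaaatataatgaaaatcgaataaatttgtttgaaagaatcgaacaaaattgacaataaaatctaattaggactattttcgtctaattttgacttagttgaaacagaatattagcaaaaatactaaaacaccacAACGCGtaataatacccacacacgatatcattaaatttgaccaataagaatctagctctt
XTH18, chr4:14827212-14827511, minus strand: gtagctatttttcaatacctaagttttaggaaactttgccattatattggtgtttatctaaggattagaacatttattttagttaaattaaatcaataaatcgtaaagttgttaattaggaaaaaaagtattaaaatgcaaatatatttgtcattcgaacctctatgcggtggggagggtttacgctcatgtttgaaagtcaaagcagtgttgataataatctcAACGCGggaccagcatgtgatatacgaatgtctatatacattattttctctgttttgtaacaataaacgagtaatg
The nearest copy starts 80, 100, 60 and 76 bases before the annotated start, in the same order. The promoters of a pair of clock genes that rose are shown for the evening element, again in capitals.
PCL1, chr3:17182742-17183041, plus strand: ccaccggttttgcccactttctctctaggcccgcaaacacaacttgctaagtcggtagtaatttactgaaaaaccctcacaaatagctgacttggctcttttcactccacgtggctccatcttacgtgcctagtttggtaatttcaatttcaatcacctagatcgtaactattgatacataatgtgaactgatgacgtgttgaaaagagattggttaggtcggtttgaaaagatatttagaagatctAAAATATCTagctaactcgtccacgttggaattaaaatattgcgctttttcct
PRR5, chr5:8358547-8358846, minus strand: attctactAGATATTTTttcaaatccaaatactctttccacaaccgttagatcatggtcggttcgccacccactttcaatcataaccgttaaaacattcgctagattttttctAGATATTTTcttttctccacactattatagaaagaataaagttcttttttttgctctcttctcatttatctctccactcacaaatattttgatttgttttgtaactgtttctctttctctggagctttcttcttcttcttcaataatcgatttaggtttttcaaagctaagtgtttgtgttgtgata
PRR5 holds the element in 2 places and PCL1 in 1, and none of the 6 windows overlaps another annotated gene.

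Among wall-modifying enzymes, more fell than rose. Of 14 genes tested, 2 rose and 9 fell with all libraries, and 1 rose and 8 fell without 0 h replicate 1. The xyloglucan-modifying enzyme TCH4 (AT5G57560), named for its response to touch, stood at 1054, 2050.2 and 1166 at 0 h and at 272, 389 and 323 at 1 h. Its relatives XTR6 (AT4G25810) and XTH18 (AT4G30280) stood at 703, 1068 and 642 at 0 h and at 181, 159.8 and 168 at 1 h for XTR6 and at 1405, 2506 and 2356 at 0 h and at 859.9, 611 and 629.9 at 1 h for XTH18. EXPA10 (AT1G26770), an expansin, changed by -2.51 ± 0.30 (SE, adjusted p = 2.8e-07, and -2.24 without replicate 1), while EXPA17 (AT4G01630), an expansin of lateral roots, stood at 27.0, 67.2 and 89.9 at 0 h and at 222, 121 and 76.7 at 1 h. It was called with all libraries (adjusted p = 0.016), but not without 0 h replicate 1, where it changed by 0.70 ± 0.36 (adjusted p = 0.18).

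Abscisic acid genes fell in part. Of 21 genes tested, 1 rose and 8 fell with all libraries, and 1 rose and 10 fell without 0 h replicate 1, with a median of -0.51. HAI1 (AT5G59220), a protein phosphatase induced by the hormone, stood at 54.1, 99.7 and 103 at 0 h and at 11.8, 12.6 and 16.5 at 1 h, a change of -2.52 ± 0.31 (SE, adjusted p = 5.7e-07, and -2.82 without replicate 1). RD22 (AT5G25610) stood at 81.1, 142 and 171 at 0 h and at 26.3, 35.8 and 39.3 at 1 h, and ABI2 (AT5G57050), another phosphatase of the pathway, at 135, 151 and 163 at 0 h and at 57.7, 61.8 and 48.2 at 1 h. The synthesis genes NCED3 (AT3G14440) and ABA1 (AT5G67030) changed by -1.35 ± 0.35 (SE, adjusted p = 0.005, and -1.50 without replicate 1) and -1.19 ± 0.18 (SE, adjusted p = 1.6e-05, and -1.18 without replicate 1). Of 10 cold genes, 1 rose and 4 fell with all libraries, and 1 and 4 without 0 h replicate 1. KIN1 (AT5G15960) stood at 729.7, 1194 and 1119.5 at 0 h and at 205, 226 and 217 at 1 h. LTI78 (AT5G52310) was called with all libraries only, and changed by 1.22 ± 0.41 (SE, adjusted p = 0.029) and by 1.0999 ± 0.46 (adjusted p = 0.097) without 0 h replicate 1.

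Genes of secondary metabolism and metal uptake were called in both directions. TT4 (AT5G13930), the chalcone synthase that opens flavonoid synthesis, stood at 513, 389 and 286 at 0 h and at 103, 59.1 and 24.1 at 1 h, a change of -2.84 ± 0.54 (SE, adjusted p = 2.5e-04, and -2.63 without replicate 1), and F3H (AT3G51240), a later enzyme of the route, changed by -1.33 ± 0.31 (SE, adjusted p = 0.0019, and -1.197 without replicate 1). Of 11 flavonoid genes, 1 rose and 3 fell with all libraries, and 1 and 2 without 0 h replicate 1, and 8 of them were at the lowest value in 0 h replicate 1. Of 30 iron genes, 3 rose and 8 fell with all libraries, and 4 and 6 without 0 h replicate 1. CYP82C4, a root gene of iron deficiency, stood at 459, 618 and 484 at 0 h and at 101, 59.1 and 33.3 at 1 h. The nicotianamine synthases NAS1 (AT5G04950) and NAS2 (AT5G56080) fell, with changes of -1.56 ± 0.30 (SE, adjusted p = 2.4e-04, and -1.66 without replicate 1) and -2.01 ± 0.36 (SE, adjusted p = 1.3e-04, and -2.10 without replicate 1). FRU (AT2G28160, also FIT), the central regulator of iron uptake, rose instead, from 54.1, 164 and 163 at 0 h to 419.9, 472 and 537 at 1 h. Of 13 indole glucosinolate and camalexin genes, 5 rose and 3 fell with all libraries, and 5 and 2 without 0 h replicate 1, with changes of 1.58 ± 0.32 (SE, adjusted p = 5.0e-04, and 1.52 without replicate 1) for CYP81F2 (AT5G57220) and -1.40 ± 0.38 (SE, adjusted p = 0.007, and -1.35 without replicate 1) for CYP71A12 (AT2G30750).

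Detoxification genes, which conjugate or oxidise foreign compounds, were called higher at a share near the 16.2% of all genes. The share called lower was above the 8.8% of all genes, and above the 9.55% without 0 h replicate 1. Of 32 genes tested, 5 rose and 6 fell with all libraries, and 4 rose and 8 fell without 0 h replicate 1. GSTF14 (AT1G49860), a phi-class glutathione transferase, stood at 1162, 1502 and 1718 at 0 h and at 323, 283 and 476 at 1 h, a change of -2.03 ± 0.21 (SE, adjusted p = 2.9e-08, and -2.19 without replicate 1). GSTU20 (AT1G78370) stood at 216, 558 and 528 at 0 h and at 97.8, 128 and 125 at 1 h, and the glucosyltransferase UGT74E2 (AT1G05680) at 378, 403 and 347 at 0 h and at 138, 89.4 and 110.4 at 1 h. GSTF2 (AT4G02520) moved the other way, at 2351, 2252 and 2123 at 0 h and at 5969, 5712 and 5554 at 1 h.

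Among genes of nitrogen uptake and its regulation, more rose than fell. Of 30 genes tested, 17 rose and 3 fell with all libraries, and 13 rose and 3 fell without 0 h replicate 1 (background 16.2% and 8.8% with all libraries), with a median of 0.57. AMT1;1 (AT4G13510), a high-affinity ammonium transporter, stood at 459, 423 and 617 at 0 h and at 2453, 2396 and 1470.1 at 1 h, a change of 2.05 ± 0.31 (SE, adjusted p = 1.4e-05, and 2.003 without replicate 1). NRT2:1 (AT1G08090), a high-affinity nitrate transporter, stood at 27.0, 23.9 and 20.1 at 0 h and at 53.0, 106 and 124 at 1 h. HRS1 (AT1G13300), a nitrate-inducible repressor of the GARP family, stood at 324, 228 and 311 at 0 h and at 980.1, 1101 and 1148 at 1 h, and BT1 (AT5G63160), a BTB-domain regulator of nitrogen use, at 676, 492 and 998 at 0 h and at 2360.1, 2342 and 2196 at 1 h. The 1 h libraries were above the 0 h libraries for these genes. Over the list, 17 of 30 genes lay wholly above and 3 wholly below at 1 h (27.5% and 14.9% of all genes tested). RFNR2 (AT1G30510), the root ferredoxin reductase that feeds nitrite reduction, went the other way, at 2729.6, 3549 and 2612 at 0 h and at 662, 818 and 957 at 1 h, a change of -1.87 ± 0.15 (SE, adjusted p = 3.7e-10, and -1.92 without replicate 1).

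Among genes of low-sugar and dark responses, too, more rose than fell. Of 27 genes tested, 16 rose and 2 fell with all libraries, and 13 rose and 3 fell without 0 h replicate 1, with a median of 0.72. SEN1 (AT4G35770), a senescence marker switched on by darkness, stood at 351, 173 and 251 at 0 h and at 1666, 1272 and 597 at 1 h, a change of 2.12 ± 0.39 (SE, adjusted p = 1.7e-04, and 2.37 without replicate 1). BCE2 (AT3G06850), a subunit of the branched-chain keto acid dehydrogenase, stood at 405, 394 and 560.1 at 0 h and at 2338, 1573 and 975 at 1 h. BZO2H3 (AT5G28770), a bZIP factor of the low-energy response, stood at 270.2, 228 and 285 at 0 h and at 879, 782 and 769.6 at 1 h, and the beta-galactosidase BGAL4 (AT5G56870) at 1351, 1258 and 1123 at 0 h and at 3959.8, 4195 and 3306 at 1 h. EXO (AT4G08950), a brassinosteroid- and sugar-linked growth gene, fell, from 1540.4, 2662 and 1755 at 0 h to 407, 454 and 517 at 1 h. SEN1 and BCE2 varied widely among the 1 h libraries, replicate 3 being lowest for both.

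In the sulfur list 8 of 18 genes rose and 2 fell, and 4 rose and 2 fell without 0 h replicate 1 (background 16.2% and 9.88% higher). The share that fell was close to the 8.8% and 9.55% of all genes. APR3 (AT4G21990), an adenylylsulfate reductase, stood at 432, 445 and 464 at 0 h and at 1446, 1171 and 1631 at 1 h, and APS1 (AT3G22890), the ATP sulfurylase before it, at 1540.4, 1879 and 2021 at 0 h and at 4608, 3970.4 and 3912 at 1 h. Of 16 phosphate genes, 3 rose and 4 fell with all libraries, and 3 and 3 without 0 h replicate 1. The phosphatase gene PS2 (AT1G73010) changed by -1.91 ± 0.39 (SE, adjusted p = 5.7e-04, and -2.63 without replicate 1), and the transporter PHT1;4 (AT2G38940) by 0.79 ± 0.20 (SE, adjusted p = 0.0046, and 0.90 without replicate 1).

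Root hair genes had the highest list median, 1.104. Of 23 genes tested, 14 rose and 0 fell with all libraries, and 12 rose and 0 fell without 0 h replicate 1. RSL4 (AT1G27740), the bHLH factor that sets hair growth, stood at 27.0, 30.8 and 51.3 at 0 h and at 126, 118 and 87.9 at 1 h, a change of 1.62 ± 0.23 (SE, adjusted p = 5.5e-06, and 1.44 without replicate 1). PRP1 (AT1G54970), a proline-rich wall protein, stood at 27.0, 30.2 and 28.2 at 0 h and at 71.9, 94.6 and 135 at 1 h, and EXPA18 (AT1G62980), a hair expansin, at 81.1, 56.4 and 66.1 at 0 h and at 169, 197 and 172 at 1 h. RHS18 (AT5G22410), a root hair specific gene, changed by 1.58 ± 0.28 (SE, adjusted p = 1.1e-04, and 1.27 without replicate 1). Replicate 1 was at its lowest value for 9 of the 23 genes. Roots given t-chalcone for 1 h averaged 15.5 ± 6.33 for PRP1, 24.9 ± 8.93 for RHS18 and 51.5 ± 16.9 for EXPA18 (SD, n = 3).

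Among water channel genes, more rose than fell. Of 21 genes tested, 11 rose and 1 fell with all libraries, and 8 rose and 2 fell without 0 h replicate 1, with a median of 0.49. TIP2;3 (AT5G47450), a tonoplast channel, stood at 243, 189 and 196 at 0 h and at 758, 676 and 505 at 1 h, and PIP2;4 (AT5G60660), a plasma membrane channel, at 189, 260.3 and 267 at 0 h and at 967, 699.5 and 485 at 1 h. TIP2 (AT3G26520), another tonoplast channel, stood at 3432, 3630.0 and 3917 at 0 h and at 8963, 7606 and 6169 at 1 h. PIP1;4 (AT4G00430) fell, from 351, 681 and 675 at 0 h to 269.9, 210.0 and 205 at 1 h, a change of -1.26 ± 0.44 (SE, adjusted p = 0.034, and -1.58 without replicate 1). Among root identity genes 7 of 17 rose and none fell in limma with or without 0 h replicate 1. CASP4 (AT5G06200), which builds the Casparian strip, stood at 27.0, 32.5 and 28.2 at 0 h and at 96.2, 129 and 144 at 1 h, its regulator MYB36 (AT5G57620) at 27.0, 108 and 107 at 0 h and at 218, 228 and 232 at 1 h, and SKOR (AT3G02850), which releases potassium into the xylem, at 27.0, 64.9 and 49.8 at 0 h and at 101, 141 and 111 at 1 h. In bulk roots, more cells of a type and more RNA per cell cannot be told apart. Their summed level was 4270.0 to 4783 at 0 h and 6711 to 7098 at 1 h.

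Of 29 auxin genes, 4 rose and 5 fell with all libraries, and 4 and 2 without 0 h replicate 1. GH3.1 (AT2G14960), which conjugates auxin to amino acids, stood at 54.1, 109 and 113 at 0 h and at 30.6, 23.9 and 21.7 at 1 h. Of 12 cytokinin genes 4 rose and none fell with all libraries, and 3 rose and 1 fell without 0 h replicate 1. RR3 (AT2G41310), a type-A response regulator induced by cytokinin, stood at 108, 219 and 342 at 0 h and at 764, 636 and 593 at 1 h. Of 18 ethylene genes, 6 rose and 3 fell with all libraries, and 7 and 4 without 0 h replicate 1. The receptor ERS1 (AT2G40940) stood at 513, 768 and 764 at 0 h and at 1628, 1344 and 1456 at 1 h. ACS8 (AT4G37770), a synthase of the ethylene precursor, changed by -2.33 ± 0.57 (SE, adjusted p = 0.0031, and -2.002 without replicate 1). Of 7 brassinosteroid and gibberellin genes, 1 rose and 1 fell with all libraries, and 1 and 1 without 0 h replicate 1. Of 10 light signalling genes, 2 rose and 1 fell with all libraries, and 2 and 0 without 0 h replicate 1. Of 10 cell cycle genes, 0 rose and 1 fell with all libraries, and 0 and 1 without 0 h replicate 1, and of 11 nucleolus genes the counts were 0 and 1, and 0 and 2.

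Clock genes moved in both directions. Of 30 genes tested, 12 rose and 8 fell with all libraries, and 9 rose and 8 fell without 0 h replicate 1. The morning genes CCA1 (AT2G46830), LHY (AT1G01060), CDF1 (AT5G62430) and PRR9 (AT2G46790) fell. RVE1 (AT5G17300), another gene of the list, went the other way. It stood at 27.0, 23.4 and 27.5 at 0 h and at 84.9, 51.6 and 43.4 at 1 h. CCA1 stood at 81.1, 63.2 and 60.2 at 0 h and at 17.3, 16.4 and 12.0 at 1 h, a change of -2.09 ± 0.30 (SE, adjusted p = 6.6e-06, and -1.96 without replicate 1), and LHY stood at 27.0, 53.0 and 42.3 at 0 h and at 27.9, 16.7 and 15.3 at 1 h. CDF1, a repressor of flowering that is high in the morning, stood at 81.1, 77.5 and 76.5 at 0 h and at 13.7, 10.2 and 11.6 at 1 h. PRR9, the first pseudo-response regulator of the day, changed by -1.141 ± 0.36 (SE, adjusted p = 0.019, and -1.51 without replicate 1), and TCP11 (AT5G08330, also CHE) by -1.72 ± 0.27 (SE, adjusted p = 2.1e-05, and -1.67 without replicate 1).

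Genes of the evening complex were higher at 1 h. ELF4 (AT2G40080) stood at 108, 71.2 and 89.9 at 0 h and at 379.9, 315 and 316 at 1 h, a change of 1.91 ± 0.28 (SE, adjusted p = 6.8e-06, and 2.06 without replicate 1). ELF3 (AT2G25930) stood at 216, 349.7 and 394 at 0 h and at 825, 802 and 742 at 1 h, and PCL1 (AT3G46640) at 108, 235 and 321 at 0 h and at 536, 461 and 581 at 1 h. The 0 h libraries were below the 1 h libraries for all 3 members of the evening complex. Over the clock list, 14 of 30 genes lay wholly above and 7 wholly below at 1 h (27.5% and 14.9% of all genes tested). FKF1 (AT1G68050), a blue-light receptor of the afternoon, changed by 1.45 ± 0.34 (SE, adjusted p = 0.0019, and 1.144 without replicate 1), RVE2 (AT5G37260) by 2.03 ± 0.33 (SE, adjusted p = 2.8e-05, and 1.59 without replicate 1), and GRP7 (AT2G21660), an RNA-binding protein under clock control, by 0.88 ± 0.20 (SE, adjusted p = 0.0016, and 0.78 without replicate 1). PRR5 (AT5G24470) changed by 0.84 ± 0.25 (SE, adjusted p = 0.015, and 0.78 without replicate 1), with an adjusted p of 0.0498 without replicate 1. The calls for TOC1 (AT5G61380), ZTL (AT5G57360), LKP2 (AT2G18915) and LCL1 (AT5G02840) were lost without 0 h replicate 1, with adjusted p of 0.36, 0.15, 0.47 and 0.15. GI (AT1G22770), PRR7 (AT5G02810) and CCR1 (AT4G39260, also GRP8) changed by -0.19 ± 0.29 (SE, adjusted p = 0.66, and -0.42 without replicate 1), -0.03 ± 0.27 (SE, adjusted p = 0.94, and -0.09 without replicate 1) and 0.07 ± 0.27 (SE, adjusted p = 0.88, and -0.02 without replicate 1).

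CCA1 averaged 68.2 ± 11.3 at 0 h and 15.2 ± 2.80 at 1 h (SD, n = 3). The averages of CCA1 in the later control roots were 35.1 ± 0.131, 4.69 ± 3.04, 500.0 ± 24.5 and 349.6 ± 63.3 at 3, 6, 12 and 24 h. In 3 h replicate 1, a library of 0.128 M counts, CCA1 was at the lowest value, 35.3. The small SD at 3 h is therefore no measure of precision. ELF4 averaged 89.7 ± 18.5, 337 ± 36.9, 115 ± 23.0, 777 ± 105, 18.6 ± 5.26 and 17.2 ± 2.77 over the same 6 times. By the labels the 24 h roots were taken at the same hour of day as the 0 h roots, yet CCA1 was above and ELF4 below every 0 h library in all 3 of them, and both genes at 3 h lay between their 0 h and 1 h means. Whether the time labels are right, those of the 0 h and 1 h roots included, was not tested. Roots given t-chalcone for 1 h, the other libraries of that hour, averaged 18.4 ± 5.08 for CCA1 and 343 ± 18.9 for ELF4.

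**Figure D4:**
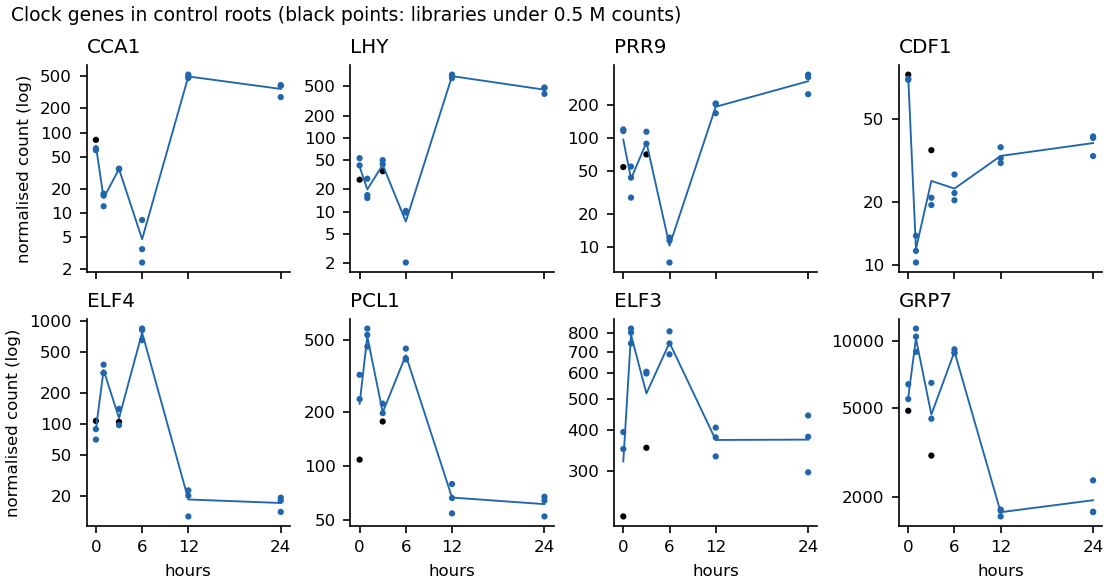
Normalised counts (log axes) of 8 clock genes in control roots by hours of incubation (x axis, 0 to 24 h), with 1 point per library, lines through the means and black points for the libraries under 0.5 M counts. CCA1, LHY, PRR9 and CDF1 are lower and ELF4, PCL1, ELF3 and GRP7 higher at 1 h than at 0 h, and CCA1, LHY and PRR9 at 24 h lie above every 0 h library.

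Genes known for low oxygen more often fell than rose in roots. Of 33 genes tested, 5 rose and 10 fell with all libraries, and 5 rose and 9 fell without 0 h replicate 1, with a median of -0.21. ADH1 (AT1G77120), the alcohol dehydrogenase that marks low oxygen, stood at 27.0, 155 and 141 at 0 h and at 161, 130.4 and 145 at 1 h. Its change was 0.77 ± 0.40 (SE, adjusted p = 0.16) with 0 h replicate 1, which was at the lowest value, and -0.03 ± 0.31 (adjusted p = 0.96) without it. HB1 (AT2G16060), a non-symbiotic haemoglobin, stood at 297, 420.3 and 403 at 0 h and at 139, 140.0 and 193 at 1 h and fell. ERF71 (AT2G47520) changed by -3.00 ± 0.66 (SE, adjusted p = 0.0011, and -2.97 without replicate 1), with 1 h values of 2.36, 2.05 and 2.81, while its relative ERF73 (AT1G72360) rose, from 324, 327 and 342 at 0 h to 719, 659 and 839 at 1 h. AT1G19530 stood at 459, 256 and 343 at 0 h and at 2385, 1851 and 1685 at 1 h, a change of 2.505 ± 0.43 (SE, adjusted p = 6.0e-05, and 2.71 without replicate 1). SRO5 (AT5G62520) stood at 405, 909.5 and 716 at 0 h and at 154, 117 and 76.7 at 1 h. The sucrose synthases SUS1 (AT5G20830) and SUS4 (AT3G43190) did not pass the test, with changes of -0.08 ± 0.18 (SE, adjusted p = 0.76, and -0.33 without replicate 1) and -0.20 ± 0.25 (SE, adjusted p = 0.58, and -0.09 without replicate 1).

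Since EtOH was the carrier, 8 genes of ethanol and aldehyde metabolism were read out, of which 4 rose and 1 fell, and 2 rose and 1 fell without 0 h replicate 1. ALDH2B7 (AT1G23800), a mitochondrial aldehyde dehydrogenase, stood at 162, 334 and 351 at 0 h and at 1164, 1253 and 833 at 1 h, a change of 1.996 ± 0.23 (SE, adjusted p = 1.9e-07, and 1.64 without replicate 1). PDC2 (AT5G54960), a pyruvate decarboxylase, stood at 324, 360.5 and 396 at 0 h and at 654, 511 and 485 at 1 h. AT4G33070, annotated as another pyruvate decarboxylase, stood at 162, 448 and 419.7 at 0 h and at 286, 131 and 120.0 at 1 h, a change of -0.91 ± 0.29 (SE, adjusted p = 0.02, and -1.39 without replicate 1). ADH1, PDC2 and AT4G33070 are also counted in the low oxygen list, so the lists are not separate readouts. In control roots at 3, 6, 12 and 24 h ALDH2B7 averaged 489 ± 119, 349 ± 46.9, 339.8 ± 28.7 and 444 ± 51.8 (SD, n = 3), the 3 h group including a library of 0.128 M counts. The part of EtOH in these levels was not tested.

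The change between 0 h and 1 h differed between roots and shoots for 2189 of 22884 genes (9.57%) by the interaction test, 1249 (5.46%) being more positive in roots and 940 (4.11%) more negative. The filter removed no gene here, because the lowest value in the shallow libraries was above it. Among genes with a symbol, the largest positive differences were those of SWEET11, 5.13 ± 0.56 (SE, adjusted p = 7.6e-09, and 6.13 without replicate 1) on the log2 scale, EXPA8 (AT2G40610), 5.08 ± 0.68 (SE, adjusted p = 4.8e-07, and 5.49 without replicate 1), and HIS1-3, 4.14 ± 0.62 (SE, adjusted p = 3.7e-06, and 4.17 without replicate 1). EXPA8, an expansin, averaged 611 ± 274 at 0 h and 33.4 ± 1.23 at 1 h in shoots, and stood at 54.1, 26.2 and 19.3 at 0 h and at 71.5, 67.3 and 50.2 at 1 h in roots. The largest negative difference among them was that of BIP3, -6.37 ± 1.07 (SE, adjusted p = 3.2e-05, and -7.35 without replicate 1). PR1 (AT2G14610) and PCR1 (AT1G14880) came next, but both were at or near the lowest value in all 6 root libraries, so no change in roots is given for them.

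In shoots 21 of the 33 low oxygen genes rose and 0 fell (background 6.98% and 9.54%), with a median change of 2.09. By the interaction test 17 of them were more negative in roots and 1 more positive, against 4.11% and 5.46% of all genes. These background shares are over all 22884 genes, while the list counts keep only genes that passed the filter in roots. HB1 averaged 43.2 ± 8.63 at 0 h and 694 ± 456 at 1 h in shoots, a difference between tissues of -4.99 ± 0.56 (SE, adjusted p = 1.4e-08, and -5.15 without replicate 1). AT4G33070 averaged 6.20 ± 2.21 and 589 ± 445, a difference of -7.05 ± 0.73 (SE, adjusted p = 1.6e-09, and -7.52 without replicate 1). In the jasmonate list 12 of 24 genes were more negative in roots and 2 more positive, and in shoots 5 rose and 2 fell. In the aquaporin list 11 of 21 were more positive and 0 more negative, PIP2;4 by 3.24 ± 0.58 (SE, adjusted p = 7.3e-05, and 3.09 without replicate 1). In shoots 1 aquaporin gene rose and 9 fell, with a median change of -0.72. In the nitrate list 16 genes rose in shoots too, and 2 and 6 were more positive and more negative in roots. Of the 27 shoot photosynthesis markers, 12 were more positive in roots and none more negative. In shoots 0 of these markers rose and 14 fell, with a median change of -1.19. The medians in roots were 0.03 with all libraries and 0.74 without 0 h replicate 1. Their summed level in roots was highest in 0 h replicate 1, as given above, and the part of that library was not tested.

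**Figure D5:**
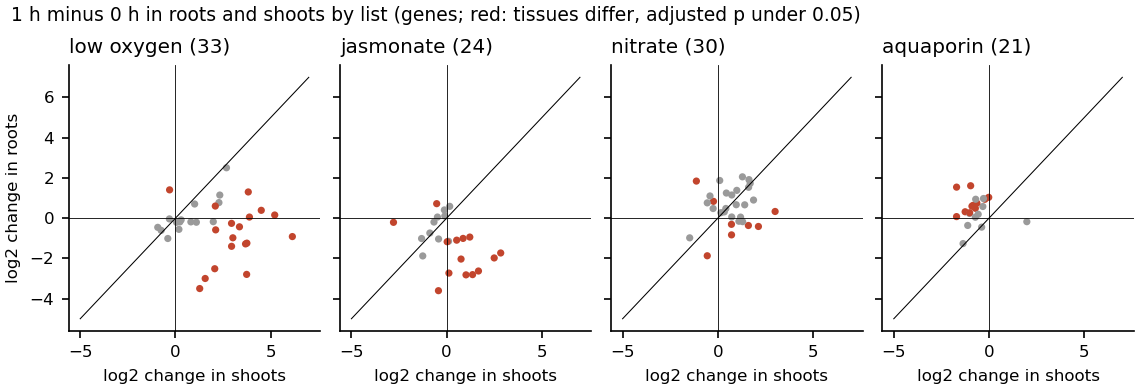
Log2 change between 0 h and 1 h in shoots (x axis) and roots (y axis) for the genes of 4 lists, with red points where the tissues differed by the interaction test at an adjusted p under 0.05 and a line of equal change. Most low oxygen and jasmonate genes lie below the line, and the aquaporin genes that differed lie above it.

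Some of the genes that rose were lower again at later control times. The 3 h group includes a library of 0.128 M counts. SWEET11 averaged 316 ± 10.7 at 1 h, then 119 ± 46.3, 88.5 ± 36.7, 38.3 ± 2.80 and 67.6 ± 4.45 at 3, 6, 12 and 24 h (SD, n = 3). AMT1;1 averaged 2106 ± 552, 676 ± 478, 720.0 ± 108, 675 ± 109 and 696 ± 115. Among genes that fell, DREB26 averaged 1013 ± 284 at 0 h and 51.8 ± 31.1, 66.4 ± 16.6, 82.2 ± 13.0 and 38.0 ± 1.15 at 3 to 24 h. CYP82C4 averaged 1342 ± 500.1 at 12 h and 1033 ± 571 at 24 h, and TT4 averaged 2609 ± 2784 at 6 h. In roots given t-chalcone for 1 h, HSP17.4 averaged 208 ± 145 and HSP70 1256 ± 1076, against 0 h means of 86.6 ± 42.1 and 1170.3 ± 569, while SWEET11 averaged 206 ± 68.7 and PHI-1 118 ± 64.8. These levels are descriptions, since all comparisons with 0 h share its libraries.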

How the data were processed

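RNA of roots and shoots was made into TruSeq libraries, per the labels. The sources used here name no aligner, read counter or strand setting, so reads of overlapping genes cannot be told apart. The submitters' processing notes name TAIR10 and DESeq2 1.14.1 without saying how they were used. The deposited values are, from their steps, a signal of read counts divided by a size factor for each library. Every root value was a whole multiple of its library's lowest value within a tolerance of 0.01, and division by that value gave the recovered counts. With no value of 0 in the table, these counts and their totals may differ from the reads. The file names genes by locus identifier only. Symbols come from the RefSeq gene table of TAIR10.1, as do products and promoter sequences.

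Because the deposited values are not raw counts, limma 3.58.1 was fitted with a trend to log2(value + 1) over all 33 root libraries in 11 groups, which share one estimate of spread, for genes at 10 or more in at least 3 of them. Fold changes on this scale understate the change of low genes. Tests were two-sided with Benjamini-Hochberg adjustment at 0.05. Differences between roots and shoots came from an interaction term over 66 libraries. edgeR 4.0.16 and DESeq2 1.42.0 were run on the recovered counts as alternatives, beside other pseudocounts, filters, scalings, weights and sample sets. The limma script was tested on simulated data. Recovered totals limit precision most in 0 h replicate 1.

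The members and gene lists were chosen with earlier results of these data known. Named genes had a symbol, an adjusted p under 0.05 with and without 0 h replicate 1, groups that did not overlap and, in the higher group, a mean of 50 or more, and the 15 in each direction were ranked by the smaller of their changes in both fits. Each list added up to 6 called members by size of change, or its 3 most abundant members where none was called, and any member of the circadian clock and low oxygen lists could be named. The interaction added 3 genes in each direction. List counts are read against the share called over all genes, given where the lists begin, with no test of a list. A gene of the ethylene list is not reported here.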

Additional observations from a re-analysis of the deposited data

Results flagged for a closer look

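The change between 0 h and 1 h differed between roots and shoots by the interaction test for 2189 genes. Of the genes named above, SWEET11 differed by 5.13 on the log2 scale, EXPA8 by 5.08 and HIS1-3 by 4.14, each more positive in roots, and BIP3 by -6.37, more negative in roots.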

How the results depend on the processing

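Of 138 named genes, 111 kept direction and side of the threshold under every alternative run, and of 2480 gene values 2373 did so, 86 lost the call, 6 gained it and 15 changed sign. Total calls between 0 h and 1 h were 4958 in roots, 11908 with array weights, whose estimation did not converge, 2092 with only the compared groups fitted, and 3327 to 5742 with 1 library left out. Without 0 h replicate 1 the calls were 3785 with limma and 7323 with edgeR. The interaction gave 2189 calls, 6770 without libraries under 0.5 M counts, 11562 with array weights, 1371 without shoots 0 h replicate 1, 1423 without shoots 1 h replicate 2, and 1371 to 2226 over all libraries left out in turn; leaving out shoot libraries was chosen after seeing the data. The genes that changed sign were not called: ADH1 AT1G77120 was -0.0302 without shallow libraries, -0.156 with array weights, -0.0436 with edgeR and -0.0971 with edgeR without 0 h replicate 1. CCR1 AT4G39260 was -0.0188 without shallow libraries, -0.057 with edgeR, -0.0857 with edgeR without 0 h replicate 1 and -0.064 with DESeq2. With 1 library left out ADH1 AT1G77120 ranged over -0.0302 to 1.21, CCR1 AT4G39260 over -0.0188 to 0.162, PRR7 AT5G02810 over -0.178 to 0.0481 and SUS1 AT5G20830 over -0.328 to 0.062. The cause of these shifts was not tested. Scaling by TMM gave 2845 higher and 1884 lower genes, median-of-ratios scaling 2827 and 2009, and DESeq2 2407 and 2938. No paired analysis was possible because the labels give no replicate numbers. Depth limits genes near 27.0 in 0 h replicate 1, where 1 recovered count sets the value.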

Other observations

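Levels in shoots are given for 3 genes that fell in roots. JAZ10 averaged 32.98 ± 11.01 at 0 h and 84.4 ± 14.1 at 1 h in shoots (SD, n = 3). HSP70 averaged 79.4 ± 18.1 and 52.0 ± 2.601, and MYBR1 averaged 2418 ± 578 and 1353 ± 388. The differences between the tissues in log2 change were -4.17 ± 0.60 (SE, adjusted p = 1.7e-06, and -4.49 without replicate 1) for JAZ10, -2.04 ± 0.66 (SE, adjusted p = 0.039, and -2.55 without replicate 1) for HSP70 and -1.46 ± 0.57 (SE, adjusted p = 0.095, and -1.62 without replicate 1) for MYBR1, the last not passing the threshold. These 3 genes were chosen for this after their values had been seen.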
